A study of Homo sapiens with 6 samples.

Results

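Mucins are long glycoproteins whose serine and threonine residues carry dense O-linked sugar chains. The transferases described here belong to families of Golgi enzymes that build, branch and cap such chains. Some members act instead on N-glycans, glycolipids or proteoglycans, as given below. The genes were taken by name from the protein-coding rows of the deposited gene count table: mucins (MUC followed by a number), the initiating GalNAc-transferases (GALNT), the core 1 synthase C1GALT1 and its chaperones, the branching enzymes (GCNT), the B3GNT, B3GALT and B4GALT families, the fucosyltransferases (FUT) and the sialyltransferases (ST3GAL, ST6GAL with ST6GALNAC, and ST8SIA). This gave 97 genes of 58735 in the table, 19951 of which were protein-coding. RNA was sequenced from T47D, an established line of human breast cancer cells that keeps luminal features and both the estrogen and the progesterone receptor. The exposed group was 3 libraries titled CQ and the control group 3 libraries titled CK, both of the same line with no genetic alteration named. The titles and the design text do not name the treatment. The reading that it was fine airborne particulate matter (PM2.5) rests on the title of the series and on an extraction protocol that mentions 48 hours of exposure for every sample, and "exposed" is used in that sense. The dose and what the control cells received are not stated in the sources used.

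In O-glycan synthesis a GALNT enzyme first attaches N-acetylgalactosamine to the protein. C1GALT1, which needs the chaperone C1GALT1C1 (COSMC), adds galactose to make core 1, a GCNT enzyme can add a branch to make core 2, and B3GNT and B4GALT enzymes extend the arms as lactosamine. Fucosyltransferases and sialyltransferases then cap the chains, which makes the H, Lewis and sialyl-T antigens. In luminal breast epithelium the membrane mucin MUC1 is the best known carrier of such chains, and in breast cancers these chains are often short and sialylated.

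Exposed cells had more RNA of the core 2 enzyme GCNT3, the core 1 sialyltransferase ST3GAL1, the fucosyltransferase FUT1, the galactosyltransferases B3GALT4 and B4GALT3, and MUC1, and less of B4GALT1, ST8SIA6 and 8 GALNT genes. Of the 97 genes, 8 had no count in any library (GALNTL6, GALNT8, ST6GALNAC3, ST6GAL2, ST8SIA2, ST8SIA3, MUC17 and MUC7). Another 31 were too low to test, with at most 22 counts in any library, or 0.604 CPM, that is, counts scaled to a common library size. The other 58 were tested by quasi-likelihood in edgeR, with a threshold of 0.05 on the p adjusted by Benjamini-Hochberg over all genes tested. Of these 58, 33 passed (56.9%), 12 higher and 21 lower in exposed cells. Without control replicate 3 the number lower was 13. Among all 17337 genes tested 43.9% passed, 21.8% higher and 22.1% lower. The corresponding shares of the 58 were 20.7% higher and 36.2% lower. Among the 13556 protein-coding genes tested 48.5% passed, 25.2% higher and 23.2% lower. The median log2 fold change of the 58 (exposed over control, as throughout) was -0.25, beside -0.02 over all genes tested. A change of at least 1.5-fold was seen for 8 of the higher and 10 of the lower genes, beside 8.96% of all tested genes called higher and 11.2% called lower by that rule (9.41% and 9.95% of the protein-coding ones). The 3 exposed values lay wholly above the 3 control values for 13 genes and wholly below them for 24, 37 in all, beside 51.9% of all tested genes whose groups did not overlap, 25.5% above and 26.5% below. Of protein-coding genes tested 56.1% did not overlap, 28.9% above and 27.2% below.

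**Figure D1:**
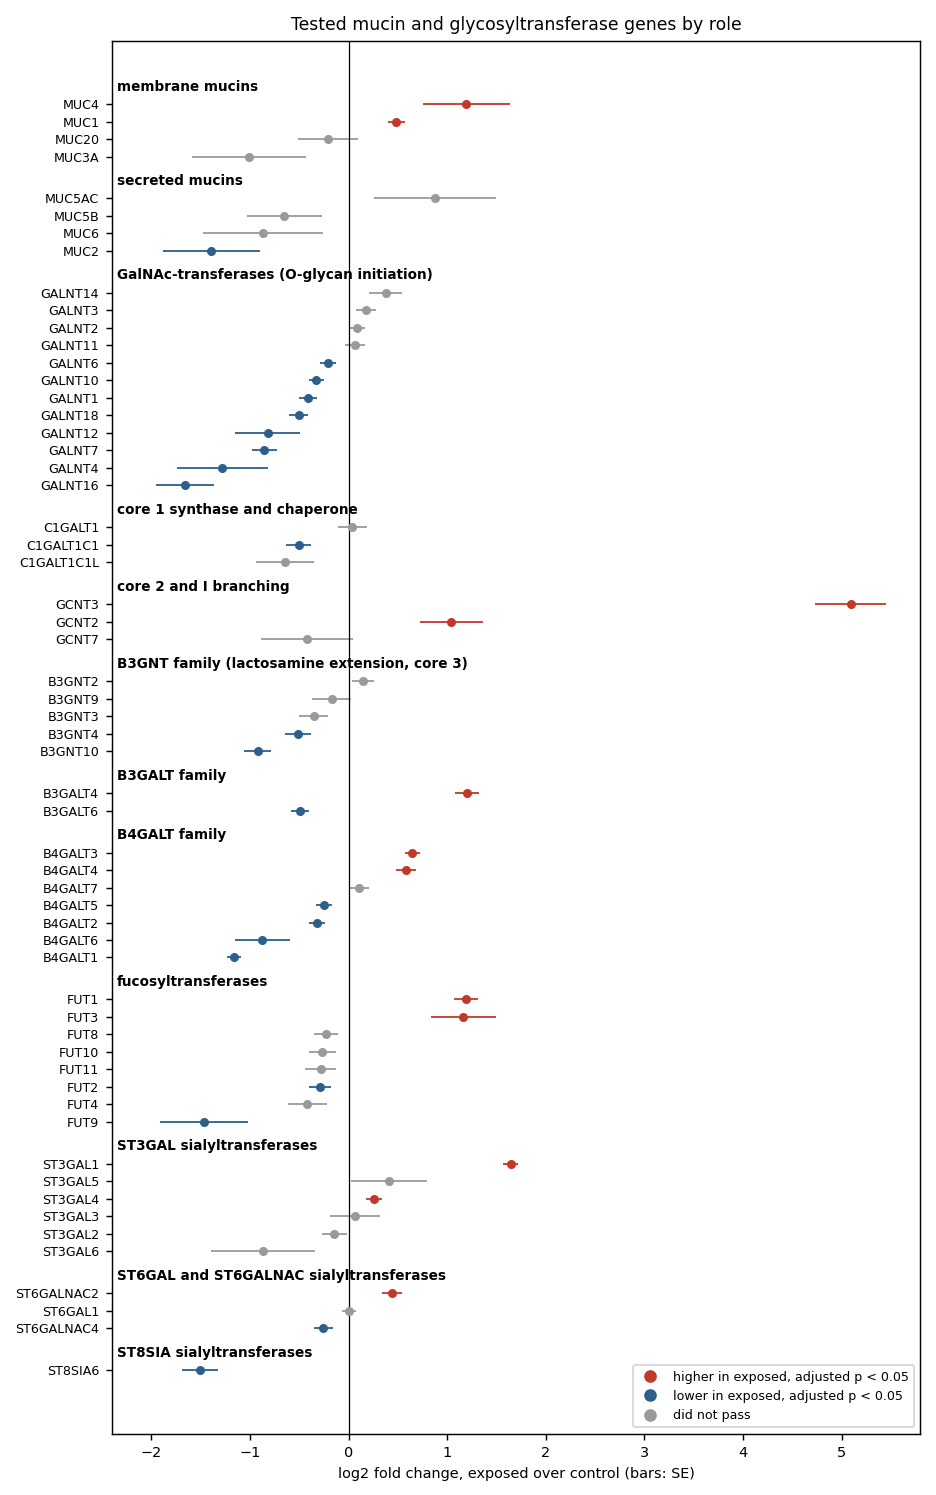
Log2 fold change (exposed over control, bars: SE) of each of the 58 tested genes, grouped by the step of glycan synthesis, with genes that passed the test coloured. No tested GALNT gene is coloured as higher, 8 are coloured as lower, and GCNT3, at 5.09, stands farthest to the right.

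Total counts per library ran from 30970218 to 36878525, and the 97 genes took 0.227% to 0.232% of them in exposed and 0.230% to 0.245% in control libraries. A count of 3 corresponds to at most 0.0969 CPM. Mitochondrial transcripts took 8.97% to 9.71% of counts in exposed and 8.98% to 9.65% in control libraries. Markers were summed to see which cells the RNA came from. None of 10 luminal epithelial markers was at 0, but 6 of them fell and 1 rose, and their summed level was 8561 to 10550 CPM in exposed and 19520 to 21360 CPM in control libraries, mostly keratin RNA. Of 13 non-epithelial markers 5 could be tested and 1, COL1A2, rose. Its call held when exposed replicate 3 was left out and ended when any other library was (adjusted p = 0.06 to 0.087). The sums of the 13 were 73.7 to 76.9 CPM in exposed and 62.7 to 71.6 CPM in control libraries. Nearly all of this was COL1A1, with means of 69.8 CPM in exposed and 61.6 CPM in control cells, which did not pass (edgeR adjusted p = 0.065). Basal epithelial markers summed to 7.39 to 7.72 CPM in exposed and 7.13 to 7.43 CPM in control libraries, and none of the 3 tested passed. The part of any shift in cell makeup in the values below was not tested, and in bulk RNA fewer cells of a kind and less RNA per cell cannot be told apart.

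Promoter sequence is given for the genes on which the account turns, to place the changes in their genomic context. Each run is the 250 bases before a RefSeq start (GRCh38.p14), 5′ to 3′ on the gene's own strand. Capitals mark matches to 3 motifs searched on both strands: the core of the xenobiotic response element bound by the aryl hydrocarbon receptor (GCGTG), the antioxidant response element (TGACNNNGC) and the estrogen response element (GGTCA and TGACC with 3 bases between). Where RefSeq lists several starts, the window with the most matches is shown.
GCNT3, chr15:59611533-59611782, plus strand: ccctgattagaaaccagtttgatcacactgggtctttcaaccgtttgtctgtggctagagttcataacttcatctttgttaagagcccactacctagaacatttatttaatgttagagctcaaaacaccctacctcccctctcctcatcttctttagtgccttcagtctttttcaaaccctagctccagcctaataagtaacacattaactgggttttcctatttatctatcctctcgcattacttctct
FUT1, chr19:48752642-48752891, minus strand: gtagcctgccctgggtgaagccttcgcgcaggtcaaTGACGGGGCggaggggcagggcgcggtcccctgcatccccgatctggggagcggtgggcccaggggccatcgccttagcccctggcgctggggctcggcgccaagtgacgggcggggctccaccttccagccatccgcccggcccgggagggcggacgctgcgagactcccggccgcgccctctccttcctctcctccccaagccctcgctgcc
B4GALT3, chr1:161177508-161177757, minus strand: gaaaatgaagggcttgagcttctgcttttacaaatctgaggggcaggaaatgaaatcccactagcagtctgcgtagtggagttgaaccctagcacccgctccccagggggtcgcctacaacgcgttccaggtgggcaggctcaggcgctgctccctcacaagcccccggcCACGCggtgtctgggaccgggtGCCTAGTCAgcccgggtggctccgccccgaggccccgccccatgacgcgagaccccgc
MUC1, chr1:155192916-155193165, minus strand: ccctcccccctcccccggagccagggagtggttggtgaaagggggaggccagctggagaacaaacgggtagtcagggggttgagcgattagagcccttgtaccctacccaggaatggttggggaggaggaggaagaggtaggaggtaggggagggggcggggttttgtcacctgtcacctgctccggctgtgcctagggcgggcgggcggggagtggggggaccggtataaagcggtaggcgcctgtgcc
B4GALT1, chr9:33167337-33167586, minus strand: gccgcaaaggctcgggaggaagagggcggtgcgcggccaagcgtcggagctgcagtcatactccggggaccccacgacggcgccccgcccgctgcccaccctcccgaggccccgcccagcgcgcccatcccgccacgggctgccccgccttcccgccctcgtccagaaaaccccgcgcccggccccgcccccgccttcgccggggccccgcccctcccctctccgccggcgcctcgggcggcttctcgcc
The FUT1 window held an antioxidant element 214 bases before the start. That of B4GALT3 held a xenobiotic core 80 bases and an antioxidant element 58 bases before the start, both on the opposite strand. At their other RefSeq starts FUT1 had no match, and B4GALT3 had a xenobiotic core but no antioxidant element. The windows of GCNT3, MUC1 and B4GALT1 held no match, and their share of G and C was 40.4%, 66.0% and 80%. RefSeq entries were found for 69 of the 97 genes, with 107 windows. The xenobiotic core was in 35 of these 107 (32.7%), beside 32.2% of all 35116 promoter windows. The antioxidant element was in 9 (8.41%), beside 10.9% of all windows, and the estrogen element was in 0 of the 107, beside 0.0399% of all. Among windows of genes that passed the test, the xenobiotic core was in 5 of 17 for higher and 7 of 18 for lower genes, and the antioxidant element in 3 of 17 and 1 of 18. Among windows of tested genes that did not pass, the core was in 11 of 27 and the antioxidant element in 0 of 27. Some genes have several windows, so these are counts of windows and not of genes. A match describes the letters of the window and shows no binding.

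Among the 11 membrane mucins, 4 could be tested, 2 rose and none fell. MUC1 (ENSG00000185499, chromosome 1, 155185824 to 155192916, minus strand) had 766, 666 and 746 CPM in exposed replicates 1 to 3 and 558, 547 and 451 CPM in control replicates 1 to 3. Every exposed library lay above every control library, and the means were 726 ± 53.0 and 519 ± 58.8 CPM (exposed and control, SD, n = 3 each). The log2 fold change was 0.48 ± 0.09 (SE, adjusted p = 2.2e-05). MUC1 had the highest level per length of the 97 genes in both groups, 154 ± 11.2 CPM per kilobase of exon in exposed and 110.0 ± 12.5 in control cells (SD, n = 3 each). MUC4, a large membrane mucin that interacts with ERBB2, was near the limit of detection, with 23, 26 and 28 counts in exposed and 11, 9 and 16 counts in control libraries. It rose by 1.20 ± 0.45 (log2, SE; adjusted p = 0.029), and its call ended without exposed replicate 2 or 3 or control replicate 1 or 2 (adjusted p = 0.066 to 0.10) and with no low-count filter (adjusted p = 0.0505). MUC20 and MUC3A, at -0.21 and -1.01, did not pass (adjusted p = 0.62 and 0.16). MUC20 overlaps MUC20-OT1 and has a close pseudogene copy, so its counts are uncertain. The cancer antigen MUC16 (CA125) had 0, 0 and 0 counts in exposed and 0, 8 and 3 counts in control libraries and was not tested.

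Of 6 secreted gel-forming and soluble mucins 4 could be tested, and none was above 1.41 CPM in any library. MUC5B had 0.648, 0.549 and 0.776 CPM in exposed and 0.857, 1.41 and 0.851 CPM in control libraries, which do not overlap, and did not pass (log2 fold change -0.65 ± 0.38, SE; adjusted p = 0.17). MUC2, the main mucin of the intestine, had 7, 7 and 10 counts in exposed and 18, 24 and 26 in control libraries. It fell by 1.39 ± 0.49 (log2, SE; adjusted p = 0.022), and the call ended without exposed replicate 1 or 2 or control replicate 2 or 3 (adjusted p = 0.059 to 0.088). MUC6 and MUC5AC, mucins of the stomach, were at -0.87 and 0.88 with adjusted p = 0.26 for both. These 4 genes lie side by side on chromosome 11, MUC6 (1012821 to 1036706) on the minus strand and MUC2 (1074875 to 1110511), MUC5AC (1157953 to 1201138) and MUC5B (1223066 to 1262172) on the plus strand. Of 12 goblet and gastric mucous cell markers, which share MUC2, MUC5AC and MUC6 with these mucins, 4 could be tested, and MUC2 and SPDEF fell. The sum of the 12 was 235 to 278 CPM in exposed and 322 to 369 CPM in control libraries, nearly all of it the luminal factor SPDEF. CLCA1, GKN1 and GKN2 were at 0 in every library.

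Of the 20 GALNT genes 8 were not tested, 2 of them with no count in any library. Of the 12 tested, 8 fell and none rose, and their median log2 fold change was -0.37. The summed level of the family was 54.8, 56.3 and 57.1 CPM per kilobase in exposed libraries and 65.7, 62.1 and 61.8 in control libraries. Each exposed sum was below each control sum. GALNT7, which prefers substrates that already carry GalNAc, had 6.66, 8.04 and 7.38 CPM in exposed and 14.2, 12.5 and 13.2 CPM in control libraries, without overlap. It fell by 0.85 ± 0.13 (log2, SE; adjusted p = 1.6e-06). GALNT16 had 0.736, 0.678 and 1.11 CPM in exposed and 3.54, 1.84 and 2.66 CPM in control libraries. Although the spread between control libraries was wide, all of them exceeded all exposed ones, and the log2 fold change was -1.66 ± 0.29 (SE, adjusted p = 2.3e-05).

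The broadly expressed enzyme GALNT1 had 25.0, 27.8 and 25.5 CPM in exposed and 36.8, 32.2 and 35.2 CPM in control libraries, apart in all libraries (log2 fold change -0.41 ± 0.09, SE; adjusted p = 0.00052). GALNT18 had 23.5, 21.6 and 24.3 CPM in exposed and 35.1, 32.4 and 31.1 CPM in control libraries. It fell by 0.51 ± 0.09 (log2, SE; adjusted p = 5.5e-05). GALNT10 fell by 0.33 ± 0.07 (log2, SE; adjusted p = 0.0006). It overlaps MFAP3, which was at -0.41, on the same strand, and their reads over the shared exons cannot be told apart. Smaller or weaker calls were those of GALNT6 (-0.21), GALNT12 (-0.82) and GALNT4 (-1.28). That of GALNT6, an enzyme known for its expression in breast cancer, ended without exposed replicate 1 or 3 or control replicate 1 or 3 (adjusted p = 0.094 to 0.15). GALNT6 overlaps SLC4A8, which was at -0.18, on the opposite strand. GALNT12 had 0.854, 0.517 and 1.03 CPM in exposed and 1.21, 1.67 and 1.40 CPM in control libraries. Its groups did not overlap, but its call ended without exposed replicate 1 or 2 or control replicate 2 or 3 (adjusted p = 0.062 to 0.18) and in DESeq2 (adjusted p = 0.065). GALNT4, whose exon is shared with the readthrough gene POC1B-GALNT4, had at most 41 counts in a library, and its call ended without exposed replicate 1 or 3 or control replicate 3 (adjusted p = 0.058 to 0.18).

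The most abundant member of the family, GALNT2, had 122, 115 and 119 CPM in exposed and 114, 115.9 and 104 CPM in control libraries. The groups overlap and it did not pass (log2 fold change 0.09 ± 0.07, SE; adjusted p = 0.34). GALNT3, GALNT11 and GALNT14 were at 0.18, 0.06 and 0.37 and did not pass either (adjusted p = 0.15, 0.66 and 0.067).

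**Figure D2:**
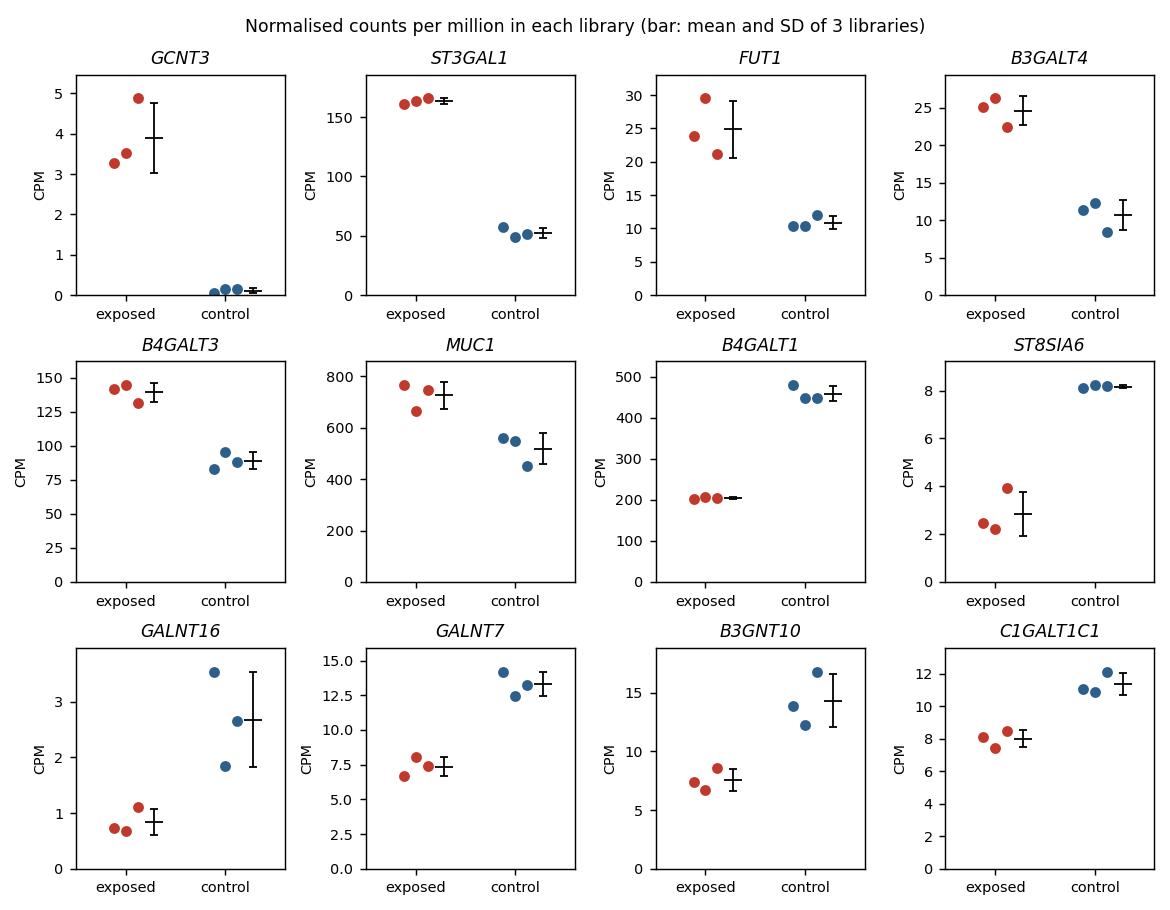
CPM of 12 genes in each library (points), with the mean and SD of 3 exposed libraries on the left and 3 control libraries on the right of each panel, on axes that start at 0. The 12 genes were picked from those that passed the test, the first 6 being higher and the other 6 lower in exposed cells. Their exposed and control points do not overlap, as for 37 of the 58 tested genes and 51.9% of all genes tested.

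At the core 1 step the synthase C1GALT1 had 8.19, 11.4 and 11.7 CPM in exposed and 12.1, 8.32 and 9.96 CPM in control libraries. The groups overlap, and the log2 fold change of 0.04 ± 0.15 (SE) did not pass (adjusted p = 0.86). Its chaperone C1GALT1C1, without which the synthase is not active, had 8.10, 7.43 and 8.46 CPM in exposed and 11.1, 10.9 and 12.1 CPM in control libraries. These do not overlap, and the fall was 0.50 ± 0.13 on the log2 scale (SE, adjusted p = 0.0016). The related retrogene C1GALT1C1L was at -0.65 and did not pass (adjusted p = 0.077), and reads of this pair may have been shared.

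Branching enzymes held the largest change among the 58 tested genes. GCNT3 (ENSG00000140297, chromosome 15, 59594875 to 59640239, plus strand), the mucin-type enzyme that makes core 2, core 4 and I branches, had 3.27, 3.52 and 4.88 CPM in exposed and 0.0536, 0.144 and 0.137 CPM in control libraries. In counts these were 111, 109 and 176 in exposed and 2, 5 and 5 in control libraries. RNA that was barely detected in control cells was thus clear in each exposed library. Its log2 fold change was 5.09 ± 0.36 (SE, adjusted p = 4.7e-13), and its size rests on these few control counts. GCNT3 shares no exonic base with another gene in GENCODE 29, but the end of its span (to 59640239) overlaps that of GTF2A2 (from 59638062) on the opposite strand, and GTF2A2 was at -0.31. The nearby genes BNIP2 and FAM81A were at 0.14 and -0.60. GCNT2, the I-branching enzyme, had 1.97, 1.97 and 1.53 CPM in exposed and 0.670, 1.32 and 0.659 CPM in control libraries. Each exposed value exceeded each control value, and it rose by 1.04 ± 0.31 (log2, SE; adjusted p = 0.0075), but the call ended without control replicate 3 (adjusted p = 0.052). The widely expressed core 2 enzyme GCNT1 had only 2, 4 and 8 counts in exposed and 2, 2 and 2 in control libraries, and GCNT4 had 0, 3 and 10 counts in exposed and 2, 0 and 0 in control libraries. Neither was tested. GCNT7 was at -0.42 and did not pass (adjusted p = 0.50). Per length, GCNT3 made up 56.2% ± 11.2 of the summed level of the GCNT genes in exposed and 3.97% ± 1.95 in control cells (SD, n = 3 each). The summed level itself was 0.843, 1.25 and 1.16 CPM per kilobase in exposed and 0.474, 0.467 and 0.392 in control libraries.

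B3GNT enzymes add the N-acetylglucosamine of lactosamine chains, and of 5 tested 2 fell and none rose. B3GNT10 had 7.36, 6.69 and 8.57 CPM in exposed and 13.9, 12.3 and 16.8 CPM in control libraries. The values were apart and the fall was 0.92 ± 0.13 (log2, SE; adjusted p = 1.2e-06). FBXW2, which overlaps it on the opposite strand with 24871 counts over all libraries against 2321, was at 0.06. B3GNT4 had 7.83, 6.56 and 7.46 CPM in exposed and 10.2, 10.4 and 10.6 CPM in control libraries. It too was lower in each exposed library (-0.51 ± 0.13, log2 fold change ± SE, adjusted p = 0.0018), and it overlaps DIABLO, at -0.46, on the opposite strand. B3GNT2, the main lactosamine-extending enzyme, had 14.6, 15.2 and 16.2 CPM in exposed and 13.2, 13.4 and 14.9 CPM in control libraries, which overlap (log2 fold change 0.15, adjusted p = 0.29). B3GNT3, which extends core 1, was at -0.36 (adjusted p = 0.057). The core 3 synthase B3GNT6 had 2, 0 and 0 counts in exposed and 4, 4 and 4 in control libraries.

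The 2 tested B3GALT genes moved in opposite directions. B3GALT4 (ENSG00000235863, chromosome 6, 33277132 to 33284832, plus strand), which adds galactose in ganglioside synthesis, had 25.1, 26.3 and 22.5 CPM in exposed and 11.3, 12.3 and 8.48 CPM in control libraries. The lowest exposed library was well above the highest control library, and B3GALT4 rose by 1.20 ± 0.12 (log2, SE; adjusted p = 1.0e-09). B3GALT6, which acts on the linker of proteoglycans, had 39.9, 41.96 and 36.9 CPM in exposed and 49.7, 64.3 and 53.2 CPM in control libraries. It was lower in each exposed library and fell by 0.49 ± 0.09 (log2, SE; adjusted p = 6.1e-05). Per length, B3GALT4 made up 42.6% ± 0.42 of the family's level in exposed and 18.7% ± 2.72 in control cells (SD, n = 3 each). The family's summed level was 24.9, 26.1 and 22.7 CPM per kilobase in exposed and 22.5, 28.1 and 22.5 in control libraries, which overlap. B3GALT5, which makes type 1 chains, had 4, 0 and 0 counts in exposed and 2, 0 and 0 in control libraries.

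All 7 B4GALT genes were tested, 4 fell and 2 rose. B4GALT1 (ENSG00000086062, chromosome 9, 33104082 to 33167356, minus strand), the main galactosyltransferase of N-glycans and lactosamine and also a subunit of lactose synthase in the lactating breast, had 202, 208 and 205 CPM in exposed and 480.2, 448 and 449 CPM in control libraries. The exposed libraries were within a narrow range far below the controls, with means of 205 ± 3.07 and 459 ± 18.1 CPM (exposed and control, SD, n = 3 each). It fell by 1.16 ± 0.07 (log2, SE; adjusted p = 2.8e-14). B4GALT3 (ENSG00000158850, chromosome 1, 161171310 to 161177968, minus strand), another lactosamine-forming member, had 142, 145 and 132 CPM in exposed and 83.4, 95.7 and 88.4 CPM in control libraries. Without overlap between groups, it rose by 0.65 ± 0.08 (log2, SE; adjusted p = 3.1e-08). PPOX, which overlaps it on the opposite strand, was at -0.04 and did not pass.

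B4GALT4 had 23.7, 29.01 and 25.0 CPM in exposed and 17.5, 17.4 and 17.0 CPM in control libraries. It was higher in every exposed library (0.58 ± 0.10, log2 fold change ± SE, adjusted p = 2.2e-05). B4GALT6, a lactosylceramide synthase, had 0.736, 1.55 and 1.33 CPM in exposed and 2.20, 1.93 and 2.50 CPM in control libraries. It fell by 0.88 ± 0.28 (log2, SE; adjusted p = 0.012), and the call ended without exposed replicate 1 or control replicate 3 (adjusted p = 0.066 to 0.09). B4GALT2 fell by 0.32 ± 0.08 (log2, SE; adjusted p = 0.0016) and B4GALT5 by 0.25 ± 0.08 (adjusted p = 0.015), the second losing its call without exposed replicate 3 or control replicate 3 (adjusted p = 0.096 to 0.15). B4GALT7, at 0.11, did not pass. Per length, B4GALT1 made up 35.9% ± 1.24 of the family's summed level in exposed and 58.4% ± 2.52 in control cells, and B4GALT3 30.7% ± 0.57 in exposed and 14.3% ± 0.88 in control cells (SD, n = 3 each). The family's sum was 117, 121 and 112 CPM per kilobase in exposed and 160.1, 162 and 159 in control libraries.

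**Figure D3:**
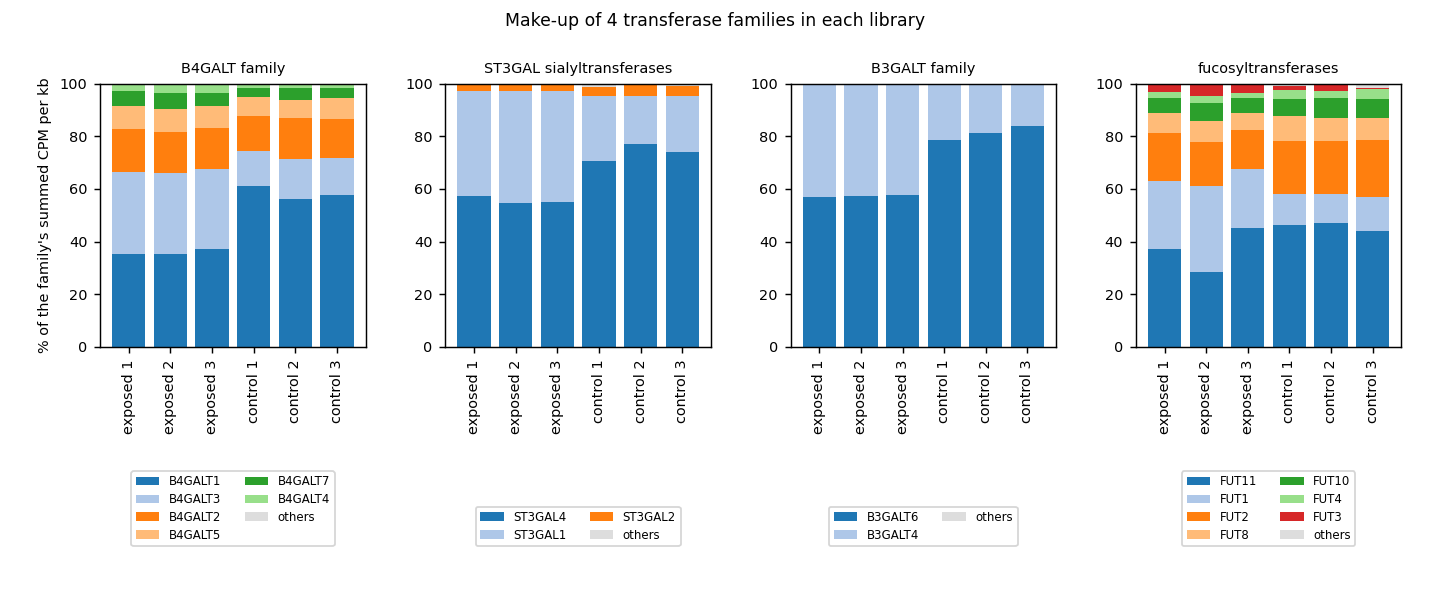
Share of each gene in the summed CPM per kilobase of its family, in percent, with 1 stacked bar for each exposed library and then each control library. In the means of 3 libraries B4GALT1 took 35.9% of the B4GALT family in exposed and 58.4% in control cells, and ST3GAL1 took 41.7% of the ST3GAL family in exposed and 21.3% in control cells.

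Of 8 tested fucosyltransferases 2 rose and 2 fell. FUT1 (ENSG00000174951, chromosome 19, 48748011 to 48755390, minus strand), which adds the terminal fucose of the H antigen, had 23.9, 29.5 and 21.2 CPM in exposed and 10.3, 10.3 and 11.99 CPM in control libraries. The groups were far apart, and FUT1 rose by 1.19 ± 0.12 (log2, SE; adjusted p = 9.7e-10). Its neighbour FUT2, the secretor enzyme that makes the same linkage on type 1 chains, was at -0.29 ± 0.12 (adjusted p = 0.041). It kept this call when exposed replicate 1 was left out and lost it when any other single library was (adjusted p = 0.057 to 0.21) and in DESeq2 (adjusted p = 0.056). Per length, FUT1 was at 5.72 ± 0.98 CPM per kilobase in exposed and 2.50 ± 0.23 in control cells, while FUT2 was at 3.54 in exposed and 4.32 in control cells (SD, n = 3 each). FUT1 was thus above FUT2 in exposed and below it in control cells.

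FUT3, the Lewis enzyme, had 1.80, 2.71 and 2.25 CPM in exposed and 0.992, 1.61 and 0.412 CPM in control libraries. It rose by 1.16 ± 0.33 (log2, SE; adjusted p = 0.0049) with groups that do not overlap, although control libraries varied widely. FUT3, FUT5 and FUT6 are closely related in sequence, and reads may have been split between them. Summed over libraries, FUT6 had 6 counts in exposed and 4 in control cells, and FUT5 had 2 and 0. FUT9, which makes Lewis X, had 10, 10 and 10 counts in exposed and 29, 24 and 37 in control libraries. It fell by 1.47 ± 0.44 (log2, SE; adjusted p = 0.0077), and the call ended without control replicate 3 (adjusted p = 0.056). The most abundant member, FUT11, had 38.6, 28.9 and 48.9 CPM in exposed and 47.3, 49.6 and 44.97 CPM in control libraries. Exposed replicate 3 lay within the control range and the other two below it, and FUT11 did not pass (log2 fold change -0.28, adjusted p = 0.17). FUT8, the core fucosyltransferase of N-glycans, was at -0.23, FUT4 at -0.42 and FUT10 at -0.26, and none of these passed (adjusted p = 0.12, 0.084 and 0.13). FUT10 overlaps TTI2, which was at 0.33, on the same strand.

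All 6 ST3GAL genes, which attach sialic acid in alpha linkage to galactose, were tested, 2 rose and none fell. ST3GAL1 (ENSG00000008513), which caps core 1 to make sialyl-T, had 161, 164 and 166 CPM in exposed and 57.4, 48.5 and 51.0 CPM in control libraries. The difference was far larger than the spread within either group, with means of 163 ± 2.51 and 52.3 ± 4.58 CPM (exposed and control, SD, n = 3 each). Its log2 fold change of 1.64 ± 0.08 (SE, adjusted p = 4.1e-17) corresponds to 3.13-fold. ST3GAL4, which acts on lactosamine chains, had 116.2, 106 and 108 CPM in exposed and 83.7, 102 and 90.8 CPM in control libraries. The groups are close but do not overlap (log2 fold change 0.26 ± 0.08, SE; adjusted p = 0.01), and the call ended without control replicate 1 or 3 (adjusted p = 0.0502 to 0.081). ST3GAL2, ST3GAL3, ST3GAL5 and ST3GAL6 were at -0.14, 0.06, 0.41 and -0.87 and did not pass (adjusted p = 0.39, 0.86, 0.41 and 0.19). ST3GAL6 overlaps DCBLD2 on the opposite strand, with 84 counts over all libraries against 4627, and DCBLD2 was also at -0.87. Per length, ST3GAL1 made up 41.7% ± 1.52 of the family's level in exposed and 21.3% ± 3.05 in control cells, and ST3GAL4 55.6% ± 1.34 in exposed and 74.0% ± 3.08 in control cells (SD, n = 3 each). The family's sum was 45.5, 43.4 and 44.1 CPM per kilobase in exposed and 26.5, 29.8 and 27.4 in control libraries.

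In the ST6 group, ST6GAL1, which makes the alpha-2,6 cap of N-glycans, had 138, 143 and 144 CPM in exposed and 152, 133 and 140 CPM in control libraries. The groups overlap and the log2 fold change was 0.00 ± 0.07 (SE, adjusted p = 0.98). ST6GALNAC2, which sialylates the GalNAc of O-glycans, had 25.1, 25.3 and 25.3 CPM in exposed and 16.9, 21.2 and 17.8 CPM in control libraries. It was higher in each exposed library (0.44 ± 0.10, log2 fold change ± SE, adjusted p = 0.0008). ST6GALNAC4 was at -0.26 ± 0.10 (adjusted p = 0.032) with groups that overlap, and its call ended without exposed replicate 2 or 3 or control replicate 1 or 2 (adjusted p = 0.054 to 0.22) and in DESeq2 (adjusted p = 0.059). ST6GALNAC1, the sialyl-Tn synthase, had 2, 2 and 5 counts in exposed and 0, 3 and 2 in control libraries and was not tested.

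Of 6 ST8SIA genes, which build sialic acid on sialic acid, ST8SIA6 alone could be tested. It had 2.47, 2.20 and 3.91 CPM in exposed and 8.09, 8.23 and 8.18 CPM in control libraries. Control libraries were close together and all exposed ones were below them, exposed replicate 3 the least so. ST8SIA6 (ENSG00000148488, chromosome 10, 17318383 to 17454330, minus strand) fell by 1.51 ± 0.18 (log2, SE; adjusted p = 3.5e-08).

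**Figure D4:**
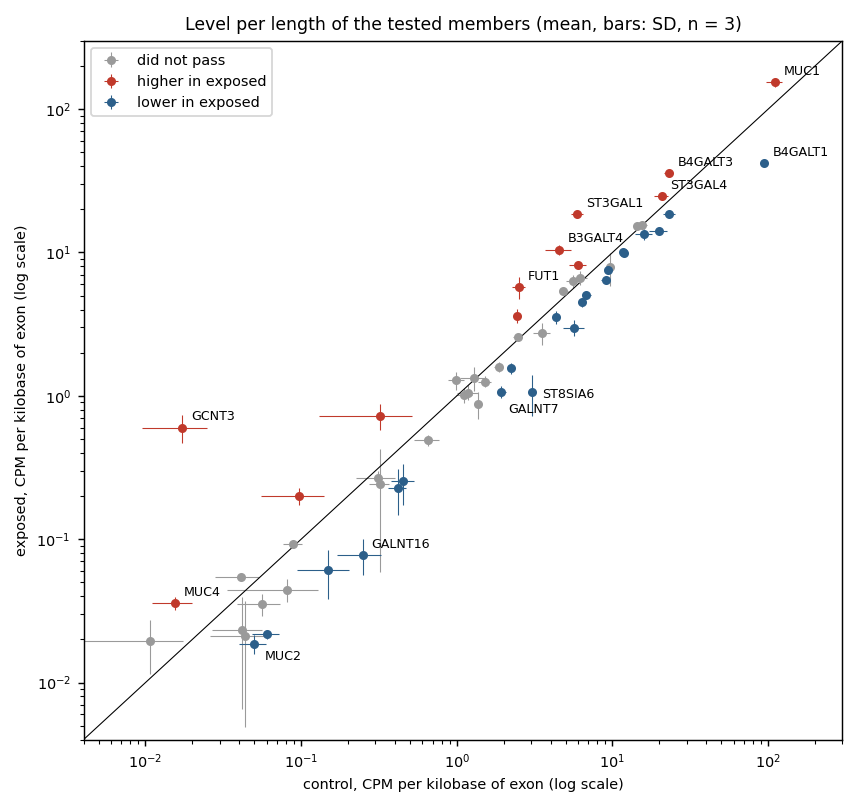
Mean level of the 58 tested genes in CPM per kilobase of exon (log scales; bars: SD, n = 3), with control cells on the horizontal and exposed cells on the vertical axis and the line of equal levels. MUC1 and B4GALT1 lie at the upper end, B4GALT1 below the line at 41.9 in exposed and 93.7 in control cells, and GCNT3 lies far above the line at 0.601 in exposed and 0.0172 in control cells.

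Ranked per length, MUC1 was first and B4GALT1 the second of the 97 genes in both groups. B4GALT3 and ST3GAL4 followed in exposed cells, at 35.9 and 24.7 CPM per kilobase, where they were at 22.9 and 20.7 in control cells. ST3GAL1 was at 18.5 in exposed and 5.91 in control cells.

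Genes that supply, move, trim or accompany these glycans were counted in 6 lists of 101 genes. Of the 83 tested, 25 rose (30.1%) and 28 fell (33.7%). The shares to set beside each list are 21.8% higher and 22.1% lower among all genes tested. Among protein-coding genes tested they are 25.2% and 23.2%. Glycan hydrolases of the lysosome and cell surface stood mostly on 1 side, with 9 of 11 tested higher and 1 lower and a median log2 fold change of 0.41. NEU1, the lysosomal sialidase, had 479.8 ± 22.5 CPM in exposed and 173 ± 10.4 CPM in control cells (SD, n = 3 each), and HEXA and GLB1, which remove terminal hexosamine and galactose, rose by 0.93 and 0.41 on the log2 scale. The sialidase that fell, NEU4, had at most 36 counts in a library, and its call ended without exposed replicate 2 or control replicate 3 (adjusted p = 0.065 to 0.12). The plasma membrane sialidase NEU3 was at 0.00. Of 18 genes of nucleotide sugar supply 7 rose and 4 fell. GNE, which starts sialic acid synthesis, had 25.2 ± 2.79 CPM in exposed and 11.7 ± 0.56 CPM in control cells (SD, n = 3 each) and rose by 1.11 ± 0.11 (log2, SE; adjusted p = 6.5e-10). GFPT1, the first enzyme of the hexosamine pathway, was at 0.58, while GNPNAT1 of the same pathway was at -0.72 and TSTA3, which makes GDP-fucose, at -0.50, and all passed. Of 9 Golgi sugar transporters 1 rose and 2 fell, SLC35C2 at 0.28 and SLC35A4 and SLC35B4 at -0.27 and -0.50. Both of these falls lost their call without exposed replicate 3 (adjusted p = 0.051 and 0.068), and 2 transporters were called higher without exposed replicate 1 or control replicate 1 or 3. The CMP-sialic acid transporter SLC35A1 was at 0.02 and did not pass.

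Of 12 tested N-glycan trimming and branching genes 2 rose and 5 fell. The mannosidase MAN1A1 had 49.6 ± 5.15 CPM in exposed and 136 ± 13.4 CPM in control cells (SD, n = 3 each), MGAT3, which adds the bisecting residue, was at -1.34 and MGAT5, which makes the beta-1,6 branch, at -0.55, while MGAT4B was at 0.44. Among 21 tested transferases of other O-linked and terminal sugars 5 rose, or 3 without control replicate 3, and 8 fell. LFNG, which extends O-fucose on Notch, was at -1.22, the sulfotransferase CHST1 at -1.55, POGLUT1, which puts O-glucose on Notch, at -0.95, and A4GALT, the Gb3 synthase, at -0.93. The list labelled mucus secretory partners is mixed and also holds surface glycoproteins such as CD44 and PODXL. Of its 12 tested genes 8 fell and 1, the adhesion receptor CD44 at 0.36, rose. The call of TFF3, among those that fell, ended without exposed replicate 2 or 3 or control replicate 2 (adjusted p = 0.063 to 0.10). AGR2, a disulfide isomerase needed for mucin folding, had 102 ± 4.48 CPM in exposed and 298 ± 19.8 CPM in control cells (SD, n = 3 each). BCAS1, ZG16B and the sialomucin PODXL were at -1.08, -0.90 and -0.87. The list summed to 667 to 720 CPM in exposed and 971 to 1040 CPM in control libraries, and its median log2 fold change was -0.42. In the same libraries 6 of 10 luminal markers fell and 1 rose, with a median of -0.67. The part of one list in the other was not tested.

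**Figure D5:**
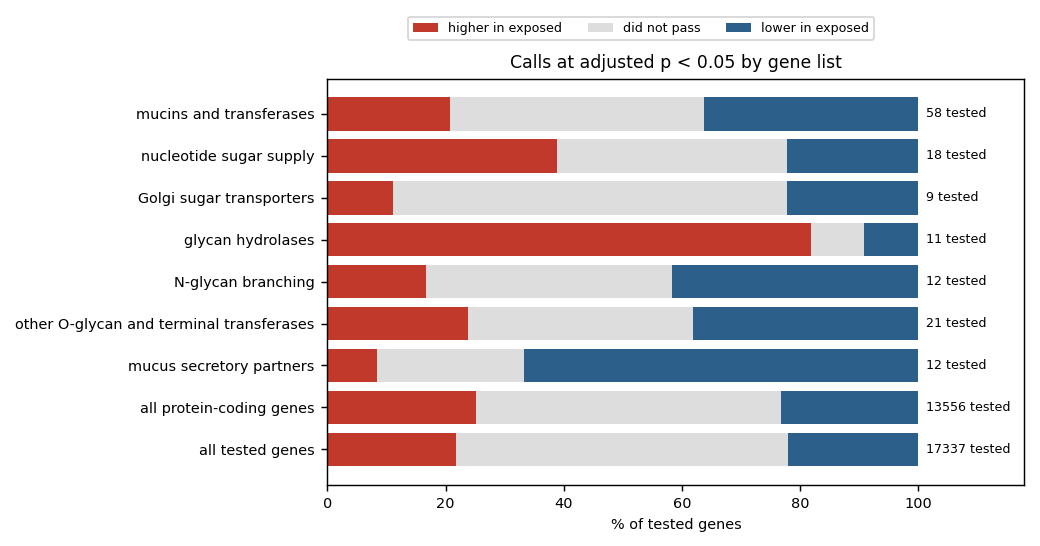
Percent of tested genes that rose and fell in the 97 genes, in each pathway list, in all protein-coding genes and in all genes (edgeR adjusted p under 0.05). Hydrolases have 81.8% of tested genes higher, the mixed list labelled mucus secretory partners 66.7% lower, and all tested genes 21.8% higher and 22.1% lower.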

How the data were processed

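Whole-number counts of reads per gene for 6 libraries were deposited by the authors and are not normalized. RNA was extracted with TRIzol and libraries were made with a NEBNext Ultra kit, per the labels' protocols. The build was GRCh38 per the submitters' processing notes, and no aligner, counter or strand setting is given in the sources used here, so reads of overlapping, antisense and near-identical genes cannot be told apart. All 58735 gene IDs had the same coordinates in GENCODE 29, and the deposited gene length equalled the summed exon length in each. The design text calls the replicates biological and does not name separate cultures, so p-values measure the spread between these samples, which may be technical. Library pairs within a group differed beyond counting noise (chi-square per degree of freedom 7.11 to 14.9).

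In R 4.3.3 with edgeR 4.0.16, low genes were dropped by filterByExpr (at least 10 counts, 15 in total), which left 17337. TMM factors were 0.948 to 1.04. The groups were compared by a robust quasi-likelihood fit. Adjustment was by Benjamini-Hochberg over all genes tested, at 0.05. CPM is per TMM-scaled library, errors are SD over 3 libraries, and levels of different genes are compared per kilobase of exon. The script was tested on simulated data. Alternatives were limma-voom (limma 3.58.1), DESeq2 1.42.0 and its size factors, other filters, a 1.5-fold minimum, a replicate block, protein-coding genes alone, removal of mitochondrial genes and leaving out each library. Halved counts were added as an alternative after seeing the data.

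The genes and all lists were chosen with earlier results of these data known. Genes with values in each library are, among those past the threshold with a mean of at least 1 CPM, all 11 that rose (the rule allowed 12) and the 12 with the largest fall, and the most abundant of each class. Pathway lists give up to 4 members with the smallest adjusted p. NEU3, NEU4, SLC35A1, CD44 and other genes with counts or values beside these were chosen after their values were seen. Promoter sequences are from RefSeq (GRCh38.p14). Some list members and sequences are not reported here.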

Additional observations from a re-analysis of the deposited data

How the results depend on the processing

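Over 16 alternatives none of the 33 called genes changed sign, while C1GALT1, MUC20, ST3GAL3 and ST6GAL1, which did not pass, did so under some. Of the 33 called genes 11 passed under every alternative that tested them (B4GALT1, B4GALT3, ST3GAL1, FUT1, B3GALT4, B3GNT10, GALNT7, ST8SIA6, GCNT3, GALNT16 and FUT3) and 21 under every one but the 1.5-fold minimum. That minimum left 8 higher and 10 lower among the 97, 1554 and 1939 among all tested genes, and 5 and 14 in the pathway lists. Leaving out 1 library gave 10 to 14 higher and 13 to 19 lower genes, the lowest of these, 13, without control replicate 3. It gave 3164 to 3860 higher and 3098 to 3777 lower among all tested genes, and 21 to 26 higher and 25 to 28 lower in the pathway lists. DESeq2 called 12 higher and 18 lower, limma-voom 12 and 22, and halved counts 12 and 19. The fit with the replicate number as a block gave 12 higher and 17 lower, and 3359 and 3420 over all genes. The calls of GALNT6, ST6GALNAC4, FUT2 and GALNT12 ended there (adjusted p = 0.055 to 0.074). With no low-count filter those of GALNT6, FUT2, GALNT12 and MUC4 ended (adjusted p = 0.0505 to 0.083). Same-numbered libraries did not deviate together (correlations of -0.07, -0.08 and 0.01), so the numbers were not taken as pairs. FUT11, GALNT3, B3GNT3, GALNT14 and FUT4 did not pass but were called under some alternative. The cause of each change was not tested. Genes under 1 CPM rest on few counts, and differences there were often not detectable at this depth.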

Other observations

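The same name pattern matched 24 rows that are not protein-coding, and 14 of them had no count in any library. ST8SIA6-AS1, the antisense partner of ST8SIA6, had 601, 521 and 696 counts in exposed and 837, 889 and 940 counts in control libraries and fell by 0.45 ± 0.10 (log2, SE; edgeR adjusted p = 0.00051), while ST8SIA6 itself was at -1.51. MUC20P1, a copy of MUC20, had 7, 12 and 16 counts in exposed and 26, 36 and 38 in control libraries (log2 fold change -1.41, adjusted p = 0.0089), while MUC20 was at -0.21. B4GALT1-AS1 had 2, 4 and 2 counts in exposed and 4, 14 and 16 in control libraries and was not tested.

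In all 6 libraries more genes had exactly 2 counts than exactly 1: 2105 to 2219 against 1280 to 1495 in exposed and 2164 to 2263 against 1307 to 1369 in control libraries. Among genes with 1 to 20 counts, 57.8% to 59.5% were even in exposed and 58.8% to 59.6% in control libraries, and above 100 counts 49.5% to 50.4% were even over all libraries. With all counts halved, FUT9 was at -1.43 (adjusted p = 0.0064) and MUC4 at 1.24 (adjusted p = 0.018), and MUC2 and GALNT4 were too low to test.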
